A study of Homo sapiens with 21 samples.

Results

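KHSRP, the KH-type splicing regulatory protein, was profiled by fPAR-CLIP at 3 RNase I doses, and its clusters in coding and 5' UTR exons are described here. A cluster is a short stretch of transcript where crosslinked reads pile up, and a member was any cluster that the deposited files placed in the class coding, start_codon, stop_codon or 5'utr. Clusters in the gene KHSRP were left out, because their reads may come from the tagged copy that the cells express. There were 4021 such exonic clusters among 297238 KHSRP clusters of the 3 fluorescent libraries and 855812 clusters of the series. They numbered 2260 of 178339 clusters at 0.15 U/ul, 1018 of 91188 at 0.5 U/ul and 743 of 27711 at 1.5 U/ul. The protein carried a FLAG-HA tag, was stably integrated in Flp-In T-REx 293 cells, an established human embryonic kidney line, and was pulled down by its FLAG tag. Cells of all 3 groups received 100 uM 4-thiouridine for 8 to 12 h and ultraviolet light at 0.3 J/cm2. Lysates were sonicated and treated with 0.1 U/ul RNase I for 10 min before the stated RNase I dose. Each dose had 1 library, so the doses are compared without any test, and the intervals given cover counting error only.

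KHSRP has KH domains that contact short single-stranded stretches rich in U and G. It is known for binding introns and 3' UTRs, where it takes part in splicing, in the decay of mRNAs with AU-rich elements and in microRNA maturation. Exons upstream of the 3' UTR are a minor place for such proteins. Crosslinked 4-thiouridines give T-to-C changes in PAR-CLIP reads, so the share of reads with this change marks crosslinked RNA.

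The sequences shown are those of exonic loci found in all 3 libraries, the places where exonic clusters recurred. They were taken around the mode position that the files give for the cluster at 1.5 U/ul. Only 22 loci met this, of which 6 were coding, 5 held a stop codon and 11 were 5' UTR loci, and none of the 77 start codon loci did. Each line gives up to 29 bases in hg38 from the deposited cluster sequence, 5′ to 3′ on the transcript strand. Capitals mark matches to 7 short words, which may overlap one another: the T run TTTTT, the core of AU-rich elements ATTTA, the repeat word TGTGT, the mixed words TGTAT and also GTATG, and the shorter words TTGT and also GGGT. They were searched on the transcript strand only. The coding loci with the highest mean share of reads were all mitochondrial. T-to-C reads made up 51.2%, 53.2% and 51.0% of mitochondrial exonic reads in order of dose, below nuclear coding reads. In the MT-CO1 cluster at this locus they were 21.7% at 0.15 U/ul, and the MT-ND1 locus had 5 reads at 0.5 U/ul. Among the largest clusters of each class at 0.15 U/ul, nuclear ones ranged from 41.4% in RHEB to 77.9% in FAR1. The SRSF1 stop codon cluster, with the most reads, stood at 51.9%. A low share is thus not particular to mitochondrial reads, and no lack of binding is read from it. Recurrence of these loci does not by itself show crosslinked binding either.
MT-ND5, chrM:12447-12475, plus strand: atccaTTGTcgcatccacctttattatca
MT-ND5, chrM:12603-12628, plus strand: catccctgtagcaTTGTtcgttacat
MT-ND1, chrM:3644-3672, plus strand: tttactcaatcctctgatcaGGGTgagca
MT-CO1, chrM:6203-6231, plus strand: aagcttctgactcttacctccctctctcc
The 4 leading stop codon loci and the 4 leading 5' UTR loci were nuclear.
LUC7L3, stop codon, chr17:50750938-50750966, plus strand: tatagtcgccattgaaaagttaattatcc
RABGGTB, stop codon, chr1:75794630-75794654, plus strand: cagcctgagctagtgagctagattc
ETNK1, stop codon, chr12:22644288-22644314, plus strand: tgcttagTTTTTTctagttagtgtttg
PAPOLA, stop codon, chr14:96532645-96532673, plus strand: aaatgGTATGTGTttagattatattaaaa
HP1BP3, 5' UTR, chr1:20773694-20773722, minus strand: gtaaataaattaaagcattaaTTTTTatc
ZC3H11A, 5' UTR, chr1:203802432-203802460, plus strand: aTGTGTGTGTGTATaagccagttagtata
FAR1, 5' UTR, chr11:13721400-13721428, plus strand: catttgcttagtattttatgtagaaaatt
FAR1, 5' UTR, chr11:13721625-13721653, plus strand: aatactaatgtctatattatagggggaaa
The windows shared no single word: TTGT stood in both MT-ND5 windows, a TTTTT run in ETNK1 and HP1BP3, and a TGTGT run in ZC3H11A and PAPOLA, while 5 windows held none of the 7 words.

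The 3 libraries differed in depth. Reads in clusters numbered 2172248, 905433 and 200210 at 0.15, 0.5 and 1.5 U/ul, and reads outside clusters are not used here. The smallest cluster held 5 reads in each library, which is 0.00023% of the reads at 0.15 U/ul and 0.0025% at 1.5 U/ul. Clusters made of a single distinct read sequence were 16.9%, 29.2% and 66.4% of all KHSRP clusters. They were 71.0%, 71.9% and 79.3% of the clusters of FUBP3, a related KH-domain protein profiled at the same doses, so cluster counts of the proteins do not rest on the same read diversity. The gene KHSRP accounted for 2, 2 and 4 left-out exonic clusters. The labels were checked against the sequences: ATG stood in 92.5%, 82.6% and 93.8% of start codon clusters, against 56.0%, 51.2% and 41.9% of coding clusters. A stop triplet stood in 98.5%, 97.7% and 93.8% of stop codon clusters, against 76.3%, 74.1% and 64.3% of coding clusters.

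Exonic clusters were a small share of KHSRP binding at every dose, and their share was largest at the highest dose. From the mildest to the strongest digestion they held 1.27% (95% Wilson interval 1.22 to 1.32), 1.12% (1.05 to 1.19) and 2.68% (2.50 to 2.88) of clusters. Introns held 79.1%, 78.1% and 73.1% of clusters, and 3' UTRs 8.65%, 9.23% and 8.76%. Coding clusters were the main exonic class, with 1433, 584 and 515 clusters, or 0.804%, 0.640% and 1.86% of all. The 5' UTR class had 520, 279 and 164 clusters, or 0.292%, 0.306% and 0.592%. The intervals of both classes at 1.5 U/ul lay above those of the lower doses. Stop codon clusters numbered 267, 132 and 48, and their shares of 0.15%, 0.145% and 0.173% had overlapping intervals. Start codon clusters numbered 40, 23 and 16.

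**Figure D1:**
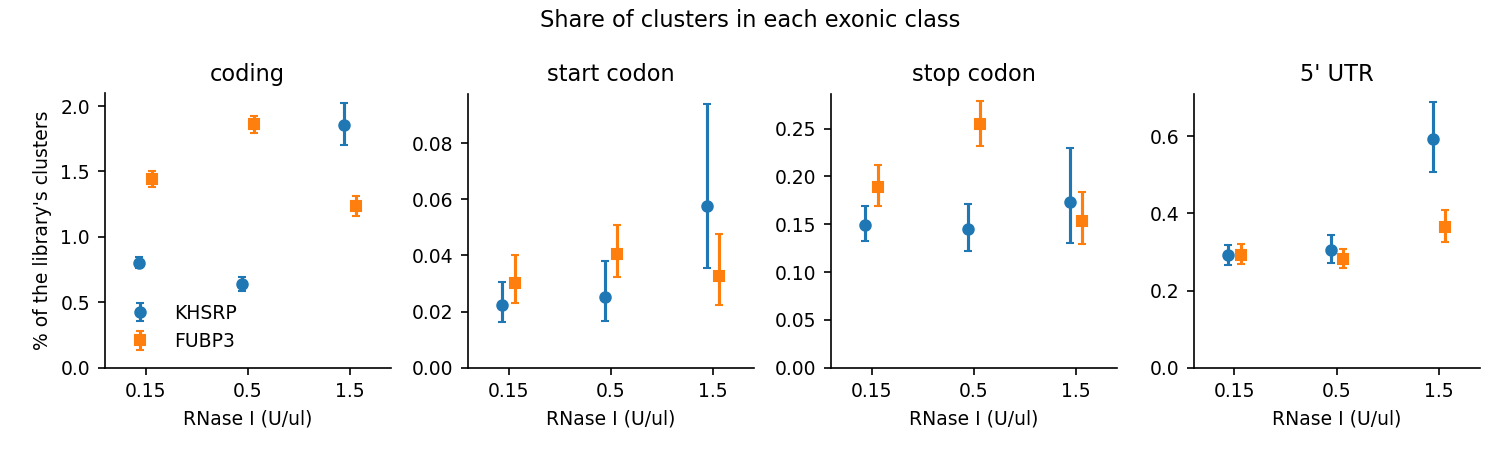
Share of each library's clusters (%) in the 4 exonic classes against RNase I dose, for KHSRP (circles) and FUBP3 (squares), 1 library per point, with 95% Wilson intervals as bars. The KHSRP coding share was 0.804%, 0.640% and 1.86%, and the FUBP3 coding share 1.44%, 1.86% and 1.24%.

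By reads, coding clusters led as well, and stop codon clusters ranked above 5' UTR clusters at 0.15 U/ul only. Coding clusters held 41.2% of the exonic reads at 0.15 U/ul, stop codon clusters 28.9%, 5' UTR clusters 26.6% and start codon clusters 3.31%. At 0.5 U/ul the coding, 5' UTR and stop codon classes held 43.8%, 32.6% and 21.5%, and at 1.5 U/ul 67.3%, 23.6% and 7.15%. Over all reads in clusters, the coding share was 0.538%, 0.467% and 1.65%, while the stop codon share was 0.377%, 0.229% and 0.175%. The coding share was thus highest at 1.5 U/ul and the stop codon share lowest there. In the FUBP3 libraries, coding clusters held 1.17%, 1.59% and 1.26% of reads, and stop codon clusters 0.564%, 0.698% and 0.169%.

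Coding clusters were thinner than stop codon and 5' UTR clusters at the lower doses. Their median was 6 reads at each dose. The largest held 63, 272 and 33 reads and were all mitochondrial. The one with 272 reads lay on the minus strand, where the other doses had no mitochondrial exonic reads. Nuclear coding clusters held at most 62, 53 and 23 reads. Over all coding clusters the median number of distinct read sequences was 2, 1 and 1. Stop codon clusters had a median of 11, 8 and 6 reads and 5, 3 and 1 distinct sequences, and the largest held 1460 reads at 0.15 U/ul. The 5' UTR clusters had a median of 8, 8 and 6 reads. A single distinct sequence made up 30.6% of coding clusters at 0.15 U/ul (28.2 to 33.0), against 7.12% of stop codon clusters (4.60 to 10.9) and 17.5% of 5' UTR clusters (14.5 to 21). Intron clusters stood at 15.8% and 3' UTR clusters at 7.76% there. At 1.5 U/ul the coding share was 76.7% (72.9 to 80.1) and the intron share 67.4%. Reads with a T-to-C change made up 81.7%, 86.2% and 93.0% of coding reads and 63.5%, 68.3% and 91.2% of stop codon reads. They were 74.9%, 80.45% and 92.9% of intron reads and 66.7%, 70.4% and 82.0% of 3' UTR reads. The main KHSRP sites thus did not have the highest shares, and no ranking of classes by crosslinking is read from this.

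Base content separated coding clusters from the main KHSRP sites. T made up 31.4%, 28.9% and 23.2% of their bases, against 38.8%, 39.7% and 35.7% in intron clusters and 39.4%, 40.7% and 37.2% in 3' UTR clusters. Stop codon clusters stood between them at 36.4%, 36.9% and 30.0%. The 5' UTR clusters had 35.4% and 35.0% T at the lower doses and 23.8% at 1.5 U/ul, where G made up 32.5% and C 26.4% of their bases. Read support moved with this. Among coding clusters with at least 3 distinct sequences, T made up 34.2% at 0.15 U/ul and 33.5% at 0.5 U/ul, against 27.0% and 26.2% in those with 1. At 1.5 U/ul the coding clusters with at least 3 sequences had 24.5% T, near the 23.0% of those with 1, while intron clusters with at least 3 sequences had 38.0%.

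The word TTGT was also less frequent in coding windows than in intron and 3' UTR windows of the same library. It stood in 19.9% (17.8 to 22.1), 18.1% (15.1 to 21.5) and 8.32% (6.21 to 11.1) of the middle 21-nt windows of coding clusters. Intron windows held it in 26.8%, 27.0% and 20.2%, and 3' UTR windows in 29.1%, 31.3% and 25.9%. The 5' UTR windows were at 23.1%, 27.3% and 6.88%, and stop codon windows at 19.5%, 25% and 8.33%. With at least 3 distinct sequences, coding windows of the 2 lower doses held TTGT in 26.0% (22.6 to 29.8) and 30.0% (22.8 to 38.4), and the intervals included the intron shares of 28.8% and 30.0% of such clusters. At 1.5 U/ul the share stayed at 8.82% over 34 windows (3.05 to 23.0), against 25.5% of intron windows. TGTAT was found in 5.49%, 6.22% and 0.990% of coding windows and in 12.8%, 14.8% and 11.4% of 3' UTR windows. ATTTA, the core of AU-rich elements, was found in 2.55%, 4.39% and 0.990% of coding windows and 7.57%, 8.04% and 7.04% of 3' UTR windows. GGGT went the other way in the 5' UTR class at the higher doses. It stood at 4.38% (2.88 to 6.60), 7.69% (5.04 to 11.6) and 13.8% (9.26 to 19.9), against 3.07%, 4.00% and 6.18% in 3' UTR windows. At 0.15 U/ul the interval included the 3' UTR share. Windows of all KHSRP clusters held GGGT in 3.33%, 4.22% and 7.12%. This was not particular to KHSRP, as FUBP3 5' UTR windows held it in 8.58%, 7.13% and 12.7%. In FUBP3 coding windows TTGT stood at 17%, 18.6% and 16.4%.

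**Figure D2:**
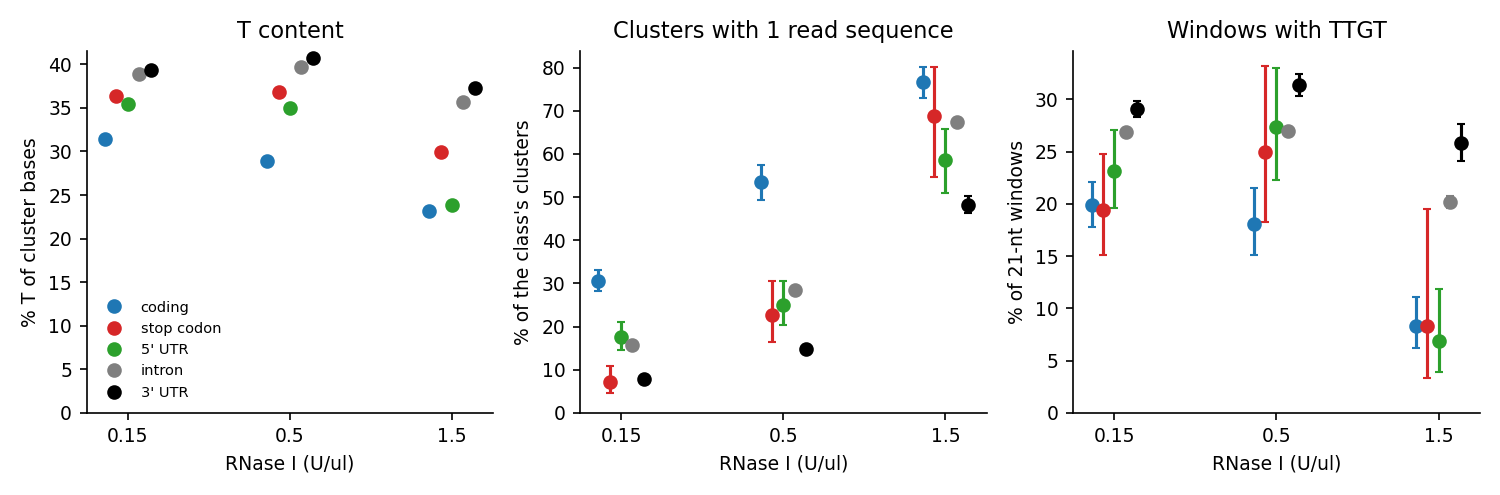
Percent T of cluster bases (left), percent of clusters with 1 distinct read sequence (middle) and percent of 21-nt windows with TTGT (right) for KHSRP clusters by class and RNase I dose, with 95% Wilson intervals as bars in the middle and right panels. Coding clusters had the lowest T content of the 5 classes drawn at each dose, 31.4%, 28.9% and 23.2%.

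The most frequent hexamers of nuclear coding windows changed between the doses. At 0.15 U/ul ATGTTT and then TGTTTG led, each in 3.09% of 1261 windows, then TGTTTT in 2.86% and TTGTTT in 2.78%. TGTTTT stood in 5.75% of 3' UTR windows. At 0.5 U/ul TGTATT led with 3.24% of 525 windows, followed by TGTTGT and then TGTTTG, each in 2.48%. The G- and C-rich words GCTGCC, then GCTGGG and then TGCTGG were each in 2.29%. The words AATGTT, then TGTAAT, then TGTGTT and then TTTTTA had the same share. At 1.5 U/ul none of the leading 10 held adjacent T bases, and AAGAAG led with 3.47% of 490 windows, followed by CTGCTG with 3.06% and AGGAAG with 2.86%. AAGAAG stood in 0.381% of intron windows and 0.258% of 3' UTR windows of that library. The words were chosen by their frequency in coding windows, which favours a higher share there, so no enrichment is read from this. The leading coding words at 1.5 U/ul, each in 11 to 17 windows, shared no word with the leading 10 at 0.15 U/ul. Leading words were not listed for other classes, so this cannot be called particular to coding windows.

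Overlap between the lower doses, by 1 nt or more on the transcript strand, was less frequent for coding clusters than for stop codon, 5' UTR, intron or 3' UTR clusters. In the 0.15 U/ul library 4.82% (3.82 to 6.05) of coding clusters met a cluster of the 0.5 U/ul library. The share was 25.8% (20.96 to 31.4) for stop codon clusters, 16.5% (13.6 to 20.0) for 5' UTR clusters, 12.8% for intron clusters and 21.2% for 3' UTR clusters. Larger clusters overlapped more often: the overlapping ones held 10.8% of coding reads, 66.2% of stop codon reads and 39.8% of 5' UTR reads. In the other direction, 15.2% of coding, 40.2% of stop codon and 35.8% of 5' UTR clusters of the 0.5 U/ul library met one of the 0.15 U/ul library. Against the same library, 6.02% (4.27 to 8.42) of the coding clusters at 1.5 U/ul did so, against 18.9% of intron and 35.8% of 3' UTR clusters. Overlap with the 1.5 U/ul library was rare in both classes: 2.09% (1.47 to 2.97) and 2.57% (1.56 to 4.19) of coding clusters of the lower doses, against 2.62% (2.54 to 2.71) and 3.83% (3.69 to 3.97) of intron clusters, with overlapping intervals. Over all 4 classes 24.0% of the 0.5 U/ul clusters met one of the 0.15 U/ul library, and 55.6% did when both libraries were held to clusters with at least 10 reads. Merged by position within a class, 2345 of 2434 coding loci, 354 of 398 stop codon loci and 736 of 834 5' UTR loci came from 1 library only. Intron and 3' UTR clusters were not merged in this way, so this is not read as particular to exonic loci.

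The class of a locus could depend on where a cluster ended. A 5' UTR cluster at 0.15 U/ul that met one of the 0.5 U/ul library kept its class in 84 of 86 cases, and a coding cluster in 63 of 69. A stop codon cluster kept it in 39 of 69 cases, with 12 labelled 3'utr at 0.5 U/ul instead. A start codon cluster kept it in 2 of 7. The largest exonic clusters of the 0.15 U/ul library were among those that changed class. The largest was in SRSF1, a splicing activator of the SR family, at chr17:58005094-58005409 on the minus strand, 316 nt long with 1460 reads. At 0.5 U/ul the overlapping cluster of 904 reads was labelled lincRNA_intron-lincRNA_exon, and at 1.5 U/ul the 3 overlapping clusters with 319 reads were labelled 3'utr. RPS24, a ribosomal protein, had a stop codon cluster of 453 reads that met intron and stop_codon clusters with 216 reads at 0.5 U/ul. SAT1, which acetylates polyamines, had one of 394 reads that met 3'utr clusters with 164 and 28 reads at the higher doses. HMGN1, a nucleosome-binding protein, had one of 380 reads that met intron clusters with 135 and 6 reads. The leading start codon cluster, of 337 reads and 299 nt in the nuclear matrix protein MATR3, met intron clusters with 184 and 27 reads. Binding at these places was thus seen at each dose, but the stop codon and start codon totals of 0.15 U/ul hold reads that the other libraries count elsewhere.

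Coding clusters of KHSRP often had an intron cluster close by. An intron cluster lay within 200 nt of 36.1% (33.7 to 38.7), 18.2% (15.3 to 21.7) and 4.42% (2.94 to 6.60) of nuclear coding clusters in order of dose. Within 100 nt the shares were 17.4%, 8.05% and 1.41%. In FUBP3 the shares within 200 nt were 5.14%, 7.60% and 3.32%, below KHSRP at the lower doses and with overlapping intervals at 1.5 U/ul. Over the KHSRP doses the number of intron clusters moved with this share, at 140983, 71227 and 20258, and its part in the result was not tested. FUBP3 had 103988, 115518 and 49942 intron clusters, more than KHSRP at the higher doses. At 0.15 U/ul the 506 coding clusters with such a neighbour had a median of 3 distinct sequences and 33.5% T, and the 894 without one a median of 2 and 30.4% T. Their TTGT shares, 22.2% (18.6 to 26.3) and 19.3% (16.8 to 22.1), had overlapping intervals. Clusters that straddle an exon edge are no members, and there were 866 from intron into coding sequence and 574 the other way at 0.15 U/ul, beside the 1433 coding clusters.

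**Figure D3:**
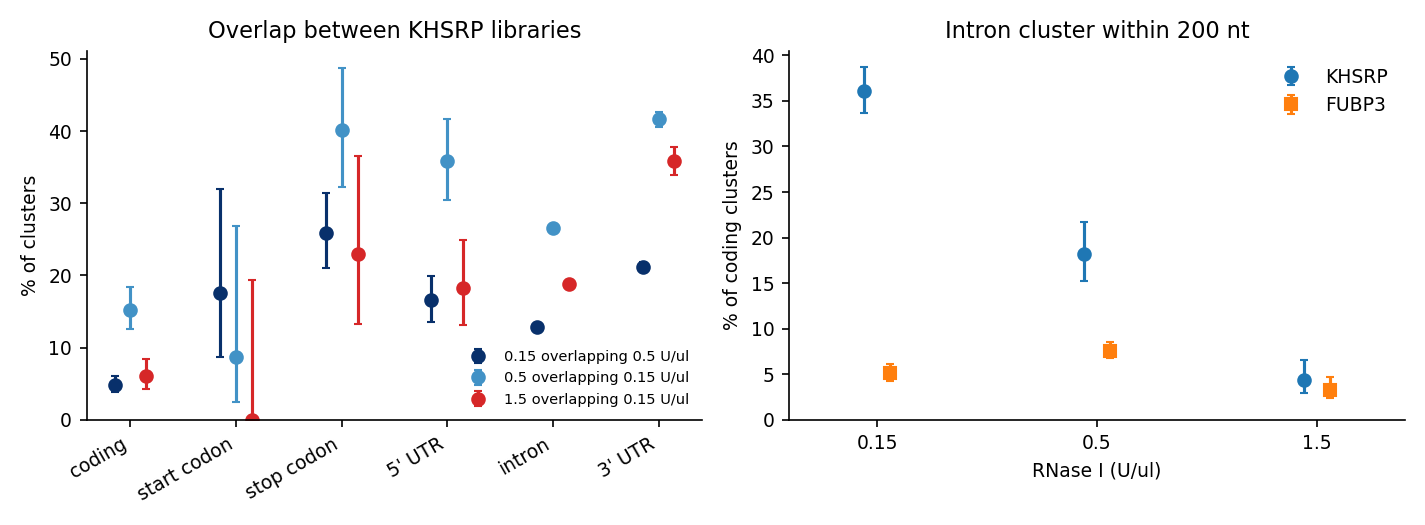
Left: percent of KHSRP clusters of each class that share 1 nt or more with a cluster of another library, for 3 pairs of doses. Right: percent of nuclear coding clusters with an intron cluster within 200 nt, for KHSRP (circles) and FUBP3 (squares); bars are 95% Wilson intervals. The coding share is 4.82% for the 0.15 U/ul library against the 0.5 U/ul library, and 36.1% of them had an intron cluster nearby.

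The 5' UTR class held clusters far from any listed transcription start as well as clusters close to one. Distances were taken to the nearest start that RefSeq (GRCh38.p14) lists for the gene in the promoter table used here. That table matched 87.9%, 87.1% and 87.8% of the clusters and is not complete. All distances to starts given here are genomic and count introns, so they are not lengths along a 5' UTR. Clusters within 300 nt of a start were 22.5% (18.9 to 26.6), 23.0% (18.2 to 28.7) and 47.9% (39.9 to 56.0) in order of dose. Clusters more than 5000 nt downstream were 40.3%, 44.4% and 23.6%. With at least 3 distinct sequences the shares near a start were 14.9%, 11.3% and 34.8%. In FUBP3, 32.9%, 31.3% and 32.0% lay within 300 nt. The near and far clusters differed in base content. At 0.15 U/ul the 184 far clusters had 37.7% T, a median of 5 distinct sequences and 50.9% of the 5' UTR reads, while the 103 near clusters had 29.6% T, a median of 2 and 13.2% of the reads. At 1.5 U/ul the 69 near clusters came from 67 genes, had 70.4% G and C, and held TTGT in 5.97% of windows (2.35 to 14.4). GGGT stood in 10.3% of near and 1.75% of far windows at 0.15 U/ul, and in 13.4% and 12.1% at 1.5 U/ul, where only 33 far windows remained.

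**Figure D4:**
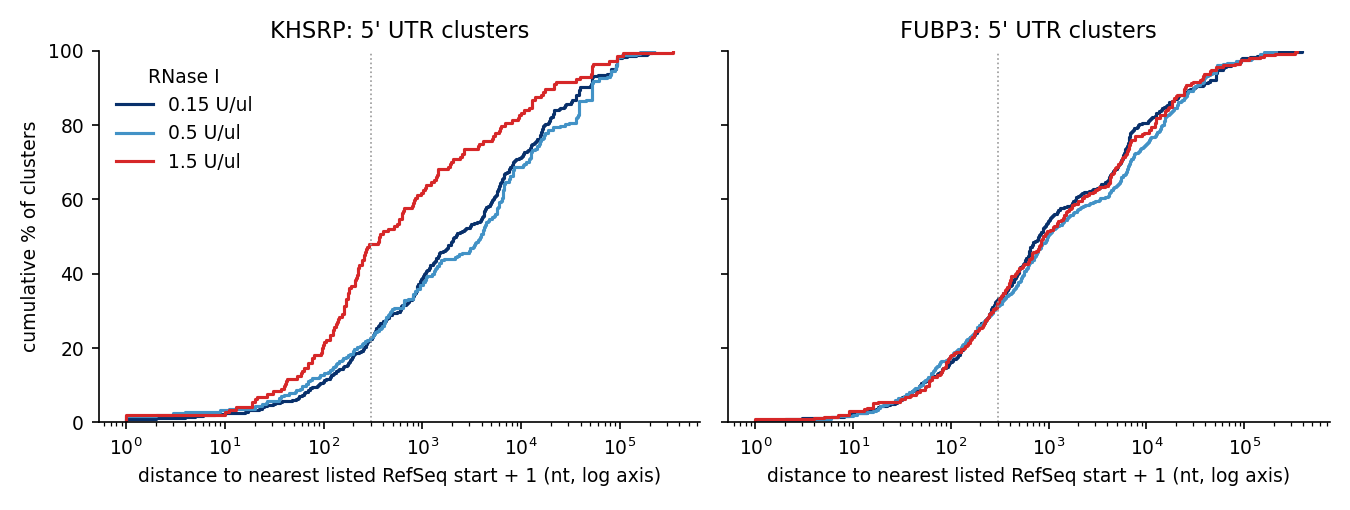
Cumulative percent of 5' UTR clusters against the genomic distance to the nearest listed RefSeq start plus 1 nt (log axis), for KHSRP (left) and FUBP3 (right), 1 line per RNase I dose. The dotted line marks 300 nt, within which 22.5%, 23.0% and 47.9% of KHSRP clusters lay.

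Exonic clusters were spread over many genes, most of which had one in 1 library only. A total of 2327 genes had an exonic cluster in some library, 1800 of them in 1 library, 431 in 2 and 96 in all 3. Such counts are not given here for intron or 3' UTR clusters, so this is not read as particular to exonic clusters. The 10 leading genes of each library held 20.2%, 18.4% and 10.4% of its exonic reads. Most genes had a single exonic cluster, 73.7%, 83.2% and 90.5% of 1511, 779 and 660 genes. An intron cluster was present in 88.4%, 78.6% and 63.2% of these genes, and a 3' UTR cluster in 67.6%, 52.9% and 27.3%.

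Among the 96 genes with exonic reads in all 3 libraries, the 4 with the highest mean share of reads owed nearly all of their exonic reads to the 5' UTR class. HP1BP3, a heterochromatin protein related to linker histones, had 619, 297 and 75 exonic reads, of which 26 at 1.5 U/ul were stop codon reads. All of its 5' UTR clusters lay between 12064 and 13005 nt downstream of the nearest listed start. Its main locus, chr1:20773673-20773967 on the minus strand, had 387, 182 and 49 reads. FAR1, a reductase of ether lipid synthesis, had 508, 230 and 75 reads, all of the 5' UTR class and all at 51482 to 52954 nt from a start. ZC3H11A, a zinc finger protein of mRNA export, had 362, 189 and 40 reads, of which all but 5 coding reads at 1.5 U/ul lay at 5092 to 6875 nt. As shares of reads in clusters, HP1BP3 stood at 0.0285%, 0.0328% and 0.0375%, FAR1 at 0.0234%, 0.0254% and 0.0375%, and ZC3H11A at 0.0167%, 0.0209% and 0.0200%. These 3 genes thus kept similar shares in each library. HNRNPC, which binds runs of U, had 497, 101 and 22 reads at 3962 to 6588 nt.

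CEP290, a protein of the ciliary base, had 290, 120 and 13 exonic reads, of which 280 and 112 at the lower doses were 5' UTR reads at 38016 to 38976 nt, and none at 1.5 U/ul. DNAJC9, a co-chaperone of histones, had 167, 103 and 25 reads, all in clusters upstream of its nearest listed start, at -1533 to -282 nt. FAM208A, also known as TASOR and part of a silencing complex, differed from these genes: its 144, 61 and 10 5' UTR reads lay at -88 to 354 nt from a start. CNOT2, a subunit of the CCR4-NOT deadenylase, had 191, 61 and 13 reads, all of the 5' UTR class and at 90709 to 94622 nt.

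**Figure D5:**
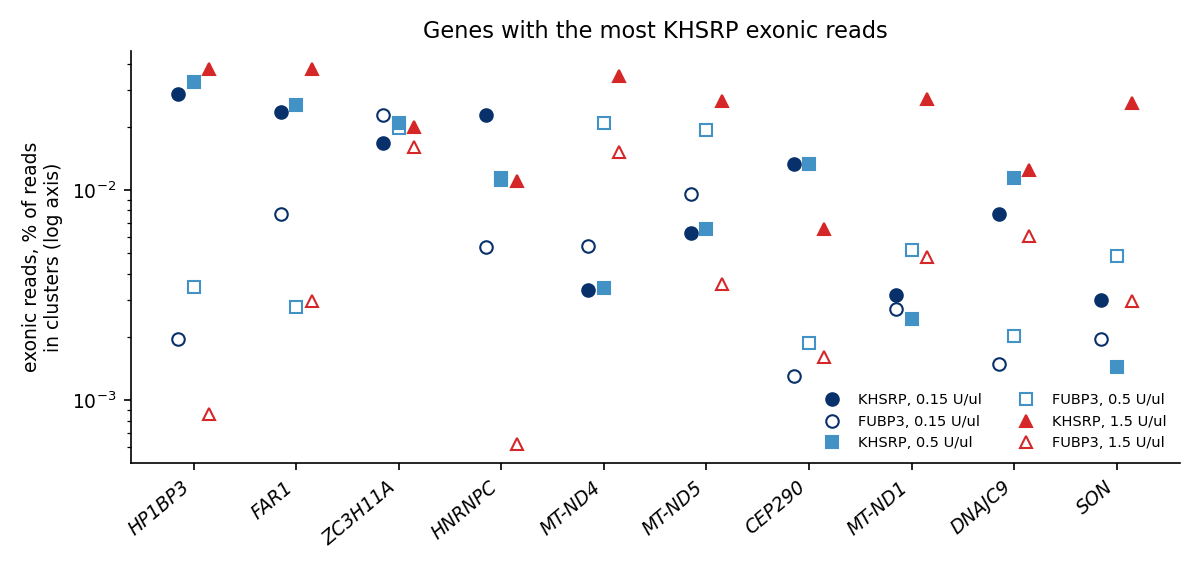
Exonic reads of the 10 leading genes among those with exonic reads in all 3 KHSRP libraries, as a percent of all reads in clusters (log axis), in the KHSRP libraries (filled) and FUBP3 libraries (open) at 3 RNase I doses, 1 library per point. HP1BP3 and FAR1 stand at 0.0375% in KHSRP at 1.5 U/ul, and SON and the mitochondrial genes are higher at 1.5 U/ul than at the lower doses.

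Stop codon reads that recurred in all libraries came from other genes. LUC7L3, a U1 snRNP-associated protein, had 146, 69 and 10 stop codon reads in 1 locus of 146 nt. RABGGTB, a subunit of the enzyme that attaches lipids to Rab proteins, had 100, 69 and 5 reads. PAPOLA, the canonical poly(A) polymerase, had 105, 13 and 8, ETNK1, an ethanolamine kinase, 17, 11 and 13, and SRP19, a signal recognition particle subunit, 24, 7 and 7. Of the 105 PAPOLA reads, 92 lay in another cluster, chr14:96531616-96531727, which met a cluster of 21 reads labelled coding at 0.5 U/ul. The PAPOLA locus found in all 3 libraries had 13, 13 and 8 reads. At 0.15 U/ul LUC7L3 also had 1371 3' UTR reads and ETNK1 2759 intron reads, far more than at their stop codons, while 7 of the 12 SRP19 reads at 1.5 U/ul were stop codon reads. No gene had start codon reads in all 3 libraries.

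In genes with many reads, exonic classes were seldom the main place of a gene's reads. Among 190 genes with at least 100 reads of all classes in each library and an exonic cluster in some, the median of the mean exonic share was 0.969%. Among these 190 genes, the highest mean shares belonged to HP1BP3 (35.5%, 43.9% and 41.4% of its own reads) and SRSF1 (74.1%, 0.484% and 0%). FAR1 followed with 21.3%, 19.4% and 28.4%, then CEP290 with 12.3%, 15.0% and 9.70% and RPS24 with 34.0%, 1.45% and 0%. SRSF1 and RPS24 ranked high through the 0.15 U/ul library, where their large stop codon clusters were called, and RPS24 had 8 stop codon reads at 0.5 U/ul. Genes below the minimum of 100 reads were not ranked. Of these, ZC3H11A had 62.2%, 73.3% and 87.0% of its own reads in exonic classes, and DDX5 17.8%, 19.4% and 14.3%.

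Mitochondrial transcripts, which have no introns, made up a part of the coding class. They held 33, 27 and 17 exonic clusters and 2.47%, 6.04% and 5.82% of exonic reads. At 0.5 U/ul 309 of these 584 reads came from 2 clusters on the minus strand, where the other doses had none. In FUBP3 the shares were 4.23%, 5.10% and 11.9%. T-to-C reads made up 51.2%, 53.2% and 51.0% of these KHSRP reads, below the 83.7%, 90.7% and 97.0% of nuclear coding reads. Some large nuclear clusters had shares as low, as given above. MT-ND5, a complex I subunit, had 135, 59 and 53 reads, MT-ND4 73, 31 and 70, and MT-ND1 69, 22 and 54. Mitochondrial clusters of all classes held 0.101%, 0.143% and 0.354% of reads in the KHSRP libraries. Without them the coding share of clusters was 0.785%, 0.613% and 1.80%, in the same order.

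Between 0.15 and 0.5 U/ul, 61 genes had at least 20 exonic reads in both libraries, and a difference of at least 2-fold in the share of reads was called. The minimum of 20 reads is 0.00092% of reads in the first library and 0.0022% in the second, so a gene near it in both is called toward 0.5 U/ul by its counts alone. Toward 0.15 U/ul 5 genes were called (8.20%), where 3.21% of all 5133 units of gene and class were, intron and 3' UTR reads included. Toward 0.5 U/ul 13 genes were called (21.3%), where 10.7% of all units were. SAT1 was furthest toward 0.15 U/ul with 425 and 39 reads (log2 2.18), then the SUMO-activating subunit UBA2 with 146 and 20 (1.61), and the ubiquitin ligase MARCH6 with 124 and 22 (1.23). Their reads of all classes differed by log2 0.04, -0.28 and 0.02, so the gene totals did not move with the exonic reads. Class labels moved with the differences of SAT1 and UBA2. The SAT1 stop codon cluster met 3'utr clusters at 0.5 U/ul, as described above. The UBA2 start codon cluster of 120 reads met 4 clusters with 209 reads labelled coding, intron and intron-5'utr. This did not hold for MARCH6, whose start codon cluster of 99 reads met no cluster at 0.5 U/ul. MT-CO1 (1.19) and HNRNPC (1.04) were the others. Toward 0.5 U/ul stood the RNA-binding protein TIAL1 with 21 and 60 reads (log2 -2.78), the KHSRP relative FUBP1 with 85 and 185 (-2.38) and ZC3H7A with 44 and 63 (-1.78). Their totals too differed little, by log2 -0.41, -0.17 and -0.13. The median over all units was -0.10, and over exonic genes -0.23. Counted in distinct sequences, 31 genes could be compared and 2 and 5 were called, and with a minimum of 50 reads 1 and 4 were.

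Between 0.15 and 1.5 U/ul, 13 genes had at least 20 exonic reads in both. HNRNPC alone was called toward 0.15 U/ul, with 497 and 22 reads (log2 1.06), against 6.22% of 2089 units. Toward 1.5 U/ul 8 genes were called (61.5%), against 22.8% of all units, and 5 of the 8 were mitochondrial. Here 20 reads are 0.00092% of the first library and 0.00999% of the second, so a gene near the minimum in both is called toward 1.5 U/ul whatever its class. No direction is read from this count. MT-ND3 had 27 and 33 reads (log2 -3.73), MT-ND4 73 and 70 (-3.38) and MT-ND1 69 and 54 (-3.09), with MT-ATP6 and MT-ND5 at -2.95 and -2.09. The nuclear genes were AMH, anti-Mullerian hormone, with 20 and 22 reads (-3.58), the speckle protein SON with 65 and 52 (-3.12) and the splicing regulator HNRNPH1 with 88 and 31 (-1.93), whose reads were of the stop codon class at 0.15 U/ul and coding at 1.5 U/ul. The 2 comparisons share the 0.15 U/ul library. SON's total differed by -0.56, with 3317 intron reads at 0.15 U/ul and 244 at 1.5 U/ul. AMH had no cluster at 0.5 U/ul. DNAJC9, FAR1, HP1BP3 and ZC3H11A stood at -0.70, -0.68, -0.39 and -0.26, within 2-fold. The median was -2.09 over these genes and -0.19 over all units. Without mitochondrial genes 8 genes remained with a median of -0.69, of which 3 were called toward 1.5 U/ul. Counted in distinct sequences, 4 genes could be compared and 3 were called toward 1.5 U/ul and 0 toward 0.15 U/ul.

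Against FUBP3, 15 genes had at least 10 exonic reads in each of the 6 libraries. KHSRP was at least 2-fold higher at all 3 doses in 4 of them (26.7%), against 12.4% of all 3290 units. The minimum of 10 reads is a larger share of the KHSRP library than of the FUBP3 library at the higher doses, 0.0050% against 0.0012% at 1.5 U/ul, so genes near it there stand higher in KHSRP by their counts alone. With at least 30 reads in each library 2 genes remained and 0 were called. CEP290 had 290, 120 and 13 KHSRP reads and 22, 37 and 13 FUBP3 reads, with log2 ratios of 3.35, 2.82 and 2.02. FAM208A had 162, 69 and 10 KHSRP reads and 11, 41 and 11 FUBP3 reads (3.51, 1.88 and 1.88). FAR1 had 130, 55 and 24 FUBP3 reads (1.60, 3.19 and 3.66) and DNAJC9 25, 40 and 49 (2.37, 2.49 and 1.05). CNOT2 came next, at 3.51, 3.25 and 0.91. In KHSRP these 5 genes had most of their exonic reads in the 5' UTR class, except CEP290 at 1.5 U/ul. The difference was not confined to exonic reads. At 0.15 U/ul the KHSRP and FUBP3 libraries held 2172248 and 1683771 reads in clusters. Reads of all classes there were 2361 against 202 for CEP290, 2271 against 432 for FAM208A and 2381 against 793 for FAR1. They were 414 against 90 for DNAJC9 and 4817 against 1077 for CNOT2. None of the 15 was at least 2-fold higher in FUBP3 at all doses, against 4.38% of all units. MT-ND3 was nearest, with 27, 19 and 33 KHSRP reads against 367, 783 and 218 (-4.13, -4.24 and -0.71). ZC3H11A had 385, 389 and 130 FUBP3 reads (-0.46, 0.08 and 0.32), near equality at each dose, and the paraspeckle protein SFPQ 362, 366 and 25 (-1.48, -1.64 and 1.54). MT-ND4 stood at -0.69, -2.61 and 1.20 and PRKDC, the catalytic subunit of the DNA-dependent protein kinase, at -0.70, 0.37 and 1.75. The median of all units was 0.31, 0.29 and 0.41. Scaled to this median, DNAJC9 was no longer called and MT-ND3 was called toward FUBP3.

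A total of 12 lists of genes were set against the share of all genes with a KHSRP cluster that also had an exonic one. That share was 14.5% of 10449 genes at 0.15 U/ul, 8.8% of 8854 at 0.5 U/ul and 9.62% of 6858 at 1.5 U/ul. It counts genes with few reads as well, and the lists were not matched to it by read number. SR and hnRNP proteins, which regulate splicing, stood at 20 of 40 genes (50.0%), 11 of 39 (28.2%) and 8 of 36 (22.2%). SRSF1 led at 0.15 U/ul with 1614 reads, and HNRNPC and HNRNPH1 led at the higher doses. Speckle and spliceosome proteins stood at 20 of 45 (44.4%), 14 of 43 (32.6%) and 12 of 40 (30.0%), with SFPQ (168, 54 and 18 reads), LUC7L3 and SON in front. DEAD-box and related helicases had 12 of 31, 2 of 31 and 5 of 27, led by DDX5 with 157 and 67 reads at the lower doses and by DDX17 with 15 reads at 1.5 U/ul, where DDX5 had 5. DDX20, a helicase of the SMN complex, had 92 reads at 0.15 U/ul and 50 at 0.5 U/ul.

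Ribosomal proteins had 17 of 68, 9 of 63 and 4 of 45 genes, with 453 of their 710 reads at 0.15 U/ul in the RPS24 cluster described above. Translation factors and tRNA synthetases had 14 of 47, 7 of 45 and 7 of 45. Chaperones had 7 of 29, 2 of 28 and 3 of 25, and cytoskeletal and glycolytic genes 4 of 25, 1 of 22 and 6 of 16, with at most 16 reads in any of the latter genes. Chromatin and nuclear pore genes had 17 of 48, 9 of 48 and 10 of 44. Zinc finger genes, the largest list, had 64 of 372 (17.2%), 30 of 310 (9.68%) and 28 of 216 (13.0%), near the share of all genes, led by ZNF382 and ZNF711 at the lower doses.

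Another list held messages tied to KHSRP's known role in mRNA decay and microRNA processing. Of these 10 of 30 (33.3%), 5 of 23 (21.7%) and 6 of 22 (27.3%) genes had an exonic cluster, above the share of all genes. At 0.15 U/ul every other list was above that share too. Helicases stood at 38.7% and chromatin and nuclear pore genes at 35.4% there, so no link to the decay role is read from this. They held 0.473%, 0.559% and 0.692% of exonic reads. DGCR8, the partner of Drosha in microRNA processing, had 31, 22 and 8 reads, the exonuclease XRN2 39 reads at 0.15 U/ul, and CTNNB1, encoding beta-catenin, 10 and 5 at the higher doses. FUBP1 was the FUBP family member with exonic reads, 85 and 185 at the lower doses and no exonic cluster at 1.5 U/ul. Replication-dependent histones, which lack introns, had 3 of 12, 3 of 7 and 5 of 9 genes and 42, 38 and 55 reads.

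Few exonic clusters were seen by position in the other KHSRP library, which was radiolabelled and digested with RNase T1. It overlapped 3.32% (2.66 to 4.14), 4.42% (3.32 to 5.86) and 2.29% (1.43 to 3.63) of the exonic clusters. The shares of coding clusters, 1.95%, 3.08% and 2.33%, had intervals that overlapped those of intron clusters at 2.4%, 2.81% and 1.91%, and 3' UTR clusters stood at 5.61%, 7.11% and 7.41%. The HP1BP3 locus had 56 reads there and the second MT-ND5 locus 97. FUBP3 clusters at the same dose overlapped 11.2%, 14.1% and 3.36% of the exonic clusters, which is 7.75%, 9.93% and 3.3% of coding and 25.5%, 28.0% and 6.25% of stop codon clusters. They overlapped 7.52%, 9.38% and 4.245% of intron clusters, shares that the coding intervals included, and 39.3%, 45.8% and 27.9% of 3' UTR clusters.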

How the data were processed

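Each deposited file listed the clusters of 1 library, with counts of reads, of distinct read sequences and of T-to-C reads per cluster, which the authors deposited as raw counts, and a deposited T-to-C fraction. Per the submitters' processing notes, bcl2fastq 2.20.0, cutadapt 1.15 and hg38 were used; the aligner, cluster caller and annotation are not given in the sources used here. Coordinates count from 1. Classes and gene names are the deposited ones. Reads per gene were set over all reads in clusters. Motifs were counted once per middle 21-nt window, on the transcript strand, leaving out shorter clusters. The exon annotation needed for places within mRNAs was not used here. FUBP3's own gene, 4, 5 and 1 exonic clusters, stayed in its libraries. The code was tested on simulated data. Genes are named by rank of reads or fold and by list, and loci by presence in all 3 libraries. Members and lists were chosen with earlier results of these data known. Software was Python 3.11.15, pandas 2.3.3, numpy 2.4.6, scipy 1.17.1 and matplotlib 3.10.9.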

Additional observations from a re-analysis of the deposited data

Results flagged for a closer look

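The coding share of clusters moved in opposite directions in the KHSRP and FUBP3 libraries between 0.15 and 1.5 U/ul. It was 1.06 percentage points higher at 1.5 U/ul in KHSRP (0.804% and 1.86%) and changed by -0.205 points in FUBP3 (1.44% and 1.24%). With 1 library per dose the difference was not tested.

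The share of 5' UTR clusters within 300 nt of a listed RefSeq start was 25.4 points higher at 1.5 than at 0.15 U/ul in KHSRP (22.5% and 47.9%) and differed by -0.914 points in FUBP3 (32.9% and 32.0%). This difference was not tested either.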

How the results depend on the processing

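No paired analysis was possible because each dose had 1 library and the doses share no replicate numbers. For the same reason no replicate could be left out. Exonic clusters were 1.05%, 0.861% and 1.87% of clusters (0.15, 0.5 and 1.5 U/ul) with at least 10 reads, 1.09%, 0.861% and 1.795% with at least 3 distinct sequences, and 1.42%, 1.26% and 3.17% over the 4 classes, introns and 3' UTRs alone, always highest at 1.5 U/ul. T in coding clusters was 34.3%, 33.6% and 24.2% with at least 10 reads and 34.2%, 33.5% and 24.5% with at least 3 sequences. TTGT stood in 27.1% and 28.3% of coding windows at the lower doses with at least 10 reads, in 26.0% and 30.0% with at least 3 sequences, and in 26.6%, 22.6% and 11.5% of whole clusters. Overlap of exonic clusters (0.15 with 0.5, 0.5 with 0.15, and 1.5 with 0.15 U/ul) was 16.9%, 55.6% and 35.1% with at least 10 reads, 15.2%, 52.25% and 39.1% with at least 3 sequences, and 5.84%, 12.6% and 4.17% when 50% of each cluster had to overlap. Between 0.15 and 0.5 U/ul, 1 and 4 genes were called with at least 50 reads and 2 and 5 by distinct sequences. Between 0.15 and 1.5 U/ul these were 0 and 4, and 0 and 3, and without mitochondrial genes 3 were called toward 1.5 U/ul. Against FUBP3, a minimum of 30 reads left 2 genes and 0 called, while scaling by the median of ratios or over exonic reads called 1 gene higher in FUBP3. Leaving out mitochondrial clusters, the distances of 300 nt to starts and 200 nt to introns, and their alternatives were chosen after the data were seen. An intron cluster lay within 200 nt of 39.4%, 27.1% and 6.25% of coding clusters when both had at least 10 reads. The low depth at 1.5 U/ul limits what can be called there: with a floor of 5 reads, a missing cluster does not show a missing site.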
